A study of Mus musculus with 416 samples.

Results

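The genes described here encode the proteins that license replication origins, fire them and run the replication fork. They were followed as DNA loci whose own replication was read in single cells of early mouse embryos, not by their expression. A list of 35 genes was used, 15 for licensing, 10 for firing and 10 for the fork, and each gene was represented by the 50-kb bin that holds its midpoint in the mouse genome build GRCm38. All 35 passed the minimum of 10 measured cells in each of the 6 groups, lay in 35 different bins, and stood among 19406 autosomal protein-coding genes placed in the same way.

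Embryos of the genotype (C57BL/6J xCBA) x DBA/2J received, as zygotes 17 to 18 hours after hCG, either 20 µM of a control siRNA (siCont) or 20 µM of an siRNA against Rif1 (siRif1), and then grew in culture until they had 4 or 8 cells or were morulae. Every embryo of the series was thus an injected and cultured one. Cells were collected at several times so that S phase was covered, and from the 4-cell, 8-cell and morula stages there were 49, 60 and 44 cells with siCont and 51, 50 and 45 with siRif1. Which embryo, litter or batch a cell came from is not in the labels, so each group counts as 1 sample, no test between groups was possible, and differences are given by their size. The data hold DNA states, so the level to which Rif1 itself was lowered cannot be read from them.

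Before S phase the origin recognition complex binds DNA and, with Cdc6 and Cdt1, loads the Mcm2 to Mcm7 helicase in an inactive form, which is what licensing means. Origins fire when kinases act on the loaded helicase and Cdc45 and the GINS complex join it, after which polymerases, the sliding clamp and fork protection proteins copy the DNA. Rif1 is known to bring protein phosphatase 1 to chromatin, where it removes phosphate groups that the kinase DDK has put on the helicase, and it is known as a regulator of replication timing.

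For each locus the replicated share is the percent of measured cells in which the bin was in the replicated state, with the limits of an exact 95% Clopper-Pearson interval that covers counting error only. Cells of the groups had gone through S phase to different extents. Over 46015 used bins the mean share of siCont was 46.5% and that of siRif1 50.5% at the 4-cell stage, 49.2 and 43.02% at the 8-cell stage, and 49.4 and 49.98% at the morula stage. No siRif1 cell of the 8-cell stage had replicated more than 66.5% of its bins, while siCont cells of that stage reached 97.4%. Shares were therefore centred on the mean of their group, and the shift of a locus is its centred share in siRif1 minus that in siCont, in percentage points. The limits are those of the uncentred share, so where it matters the siRif1 limits are also given moved by the difference in group means. Counting error alone gives the shift of a member an SD of 9.53, 9.08 and 9.40 points at the 3 stages, so that a shift of about that size is within it. A negative shift is called later and a positive one earlier, and 20 points or more is called a large shift.

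In control embryos the loci of the replication machinery ranked earlier than genes in general. That genes as a whole lie above the mean follows in part from how the direction was set, since the state in which bins with genes were found more often was read as replicated. Their median place among all used bins, as a percentile rank in which 100 is earliest, was 84.2 at the 4-cell, 79.7 at the 8-cell and 83.9 at the morula stage, against 69.7, 72.4 and 73.8 for all genes. Of the 35 loci 30, 32 and 34 lay above the mean of their group at these stages, where 68.4, 77.3 and 81.4% of all genes did. Between 21 and 22 of them fell in the earliest of 5 equal classes of bins, ranked by control cells of the other 2 stages, a class that held 39.2 to 41.2% of all genes.

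The earliest and latest loci of the machinery differed widely. Orc1, the large ATPase subunit of the origin recognition complex, was replicated in 40 of 49 siCont cells at the 4-cell stage (81.6%, 95% limits 67.98 and 91.2%), in 52 of 60 at the 8-cell stage (86.7%) and in 39 of 44 at the morula stage (88.6%). Clspn, which encodes the checkpoint adaptor claspin at the fork, equalled it at the 4-cell stage with 40 of 49 cells. Mcm7, a subunit of the helicase, lay at the other end with 13 of 49 cells (26.5%, 95% limits 14.95 and 41.1%), a percentile rank of 5.96. Orc5, another ATPase subunit of the recognition complex, had the lowest share of the list at the 8-cell stage, 27 of 60 cells (45%), and at the morula stage, 19 of 44 cells (43.2%).

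In control embryos the centred shares of the loci were higher at the morula than at the 4-cell stage about as often as those of other genes. This is a change on the scale of shares, whose SD over all used bins went from 13.7 to 25.8 points between these stages, and by rank the members had no such gain (medians 84.2, 79.7 and 83.9). The median change from the 4-cell to the 8-cell stage, 4.08 points, turned to -1.53 by rank and to -0.0340 with median centring. Between the 4-cell stage and the morula the centred share was higher at the morula for 29 of 35 loci, with a median change of 10.9 points, and over all genes it was higher for 80.3% with a median of 11.4 points. A gain of 20 points or more was seen for 7 of the 35 loci and for 20.6% of all genes. The 7 were Mcm7 (31.99 points), the loading factor Cdt1 (31.3), Mcm2 (26.7), the helicase activator Cdc45 (24.02), Orc6 and Gmnn (21.6 each) and Ticrr (20.2). Of these 5 are licensing genes, and Gmnn encodes geminin, the inhibitor of Cdt1. The largest losses were those of Orc4 (-13.6 points), Mcm4 (-11.01) and Clspn (-9.48). All 10 firing loci gained, by a median of 13.3 points, and 7 of the 10 fork loci did. Mcm7 went from 13 of 49 to 27 of 44 replicated cells (61.4%) and still lay below Orc1 at the morula stage.

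The proximal promoters of several members carry a word bound by E2F factors, the transcription factors known to drive genes of the G1 to S transition, and they are shown because members with very different timing share it. RefSeq promoters of GRCm38.p6, 250 bases before to 50 after the start, were at hand for 26 of the 35 genes as 30 promoters. The words TTTCCCGC, TTTGGCGC, TTTCGCGC and TTTGCCGC, read on either strand, occurred in 12 of these 30 and in 744 of all 32851 promoters (2.26%). Each word holds a CpG, and the median number of CpG in these promoters was 21 against 7 in all promoters. By gene this was 12 of 26 and 3.46% of the genes with a promoter. In 8 genes a match lay upstream of the start, and 5 of these follow, each with 30 bases 5′ to 3′ on the strand of the gene and the matching bases in capitals, and in Mcm5 and Mcm6 the capitals cover 2 overlapping words.
Cdc6, chr11:98908002-98908031, plus strand: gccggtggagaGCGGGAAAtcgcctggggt
Mcm5, chr8:75109345-75109374, plus strand: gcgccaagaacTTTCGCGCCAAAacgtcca
Mcm6, chr1:128359797-128359826, minus strand: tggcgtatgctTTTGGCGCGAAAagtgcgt
Mcm7, chr5:138172030-138172059, minus strand: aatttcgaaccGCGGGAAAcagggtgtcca
Orc1, chr4:108579416-108579445, plus strand: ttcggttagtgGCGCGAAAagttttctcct

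These matches are a description of letters, not of bound sites. The same kind of word stood before loci that behaved differently in the timing data: in control cells of the 4-cell stage Orc1 was among the earliest loci and Mcm7 was the latest of the list. Over the 8 genes with an upstream match, the shift at the 8-cell stage ran from -35.4 points at Cdc6 to 4.18 points at Mcm6. The box CCAAT, read on either strand, was in 19 of the 30 promoters (63.3%) and in 37.4% of all promoters.

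After siRif1 the list as a whole had lower centred shares than in controls at the 8-cell and morula stages, to nearly the same extent as all genes. The median shift of the 35 loci was -8.82 points at the 8-cell stage and -9.02 points at the morula stage, and over all genes it was -7.49 and -8.04 points. Shifts were negative at 28 and 29 of 35 loci, beside 71.9% and 74.8% of all genes. The 4-cell median was -4.36 points with 26 of 35 negative, beside -2.31 points and 59.6% of all genes. Negative shifts at both the 8-cell and the morula stage were found for 22 of 35 loci, and for 60.1% of all genes.

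These splits depend on how the groups are put on one scale. Without centring, 18, 35 and 29 of 35 loci had lower shares in siRif1 at the 4-cell, 8-cell and morula stages. By percentile rank 25, 22 and 20 were lower, and the median rank of the members in the morula was 83.9 in siCont and 84.2 in siRif1, so that on this scale the members differed little there. With centring on the group median 27, 24 and 28 were lower. When the cells of both treatments were weighted alike over 4 classes of percent replicated, the 4-cell median became 0.466 points with 16 of 35 loci negative, whereas the 8-cell and morula medians were -8.48 and -7.78 points. In that weighting 3 siCont cells of the 8-cell stage and 1 siRif1 cell of the morula drop out, since their class held no cell of the other treatment. The 4-cell direction of the list is therefore not given as a result.

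**Figure D1:**
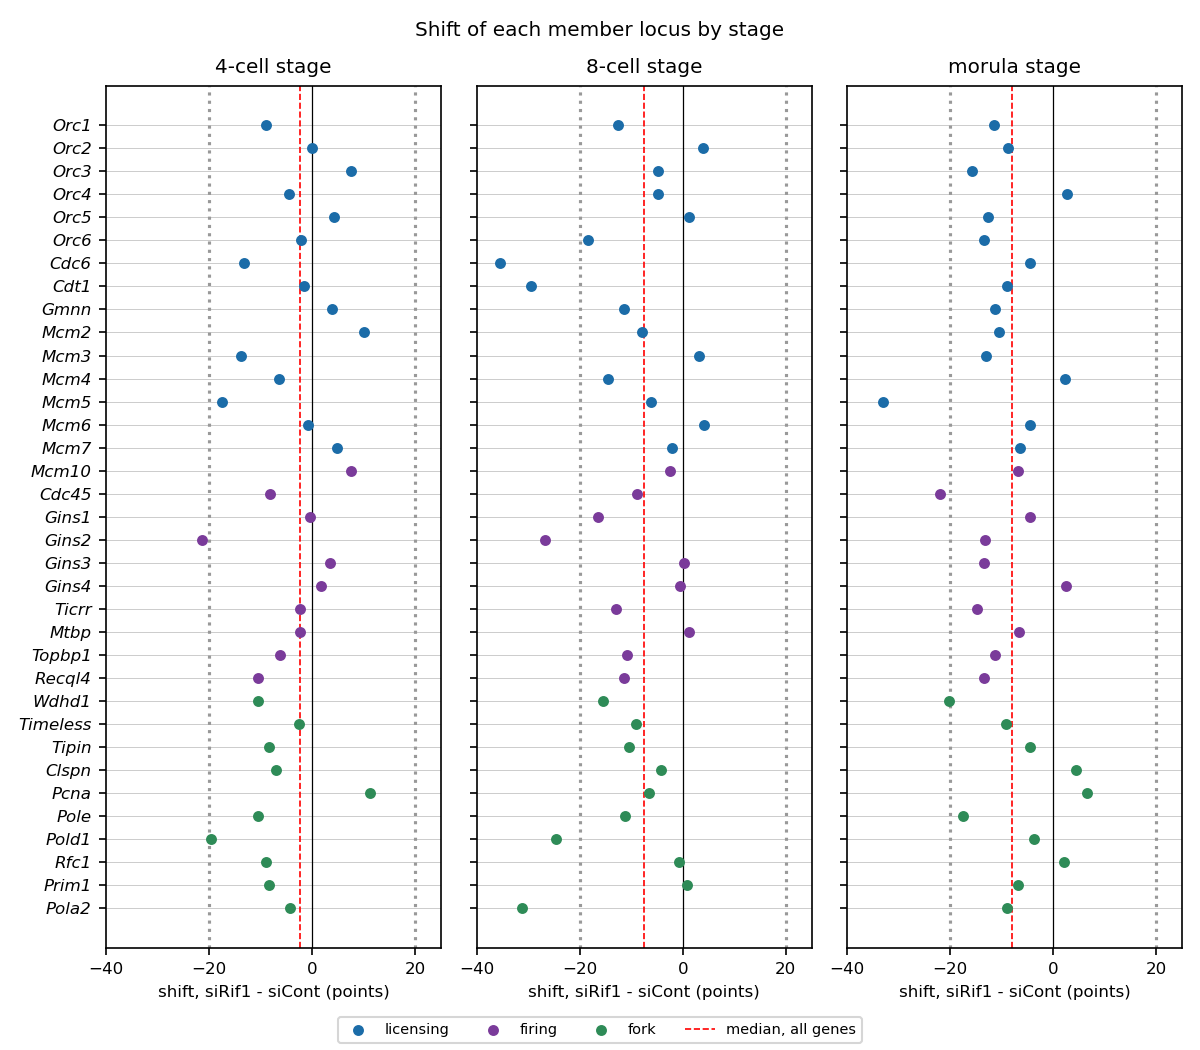
Shift of each of the 35 loci (siRif1 minus siCont, points) at the 4-cell, 8-cell and morula stages, coloured by role; dotted lines mark 20 points either way and the dashed red line the median of all genes. Most points lie left of 0 at the 8-cell and morula stages, with Cdc6, Pola2, Cdt1, Gins2 and Pold1 furthest left at the 8-cell stage and Mcm5 at the morula stage.

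Large shifts to later replication were seen at 1, 5 and 3 of the 35 loci at the 3 stages, beside 3.07, 18.2 and 9.98% of all genes, and at no locus to earlier replication, where 0.953, 0.989 and 1.14% of all genes had one. The counts of large shifts thus lay near the background. A large shift at 1 stage or more was seen at 8 loci: Cdc6, Cdt1, Gins2, Pold1, Pola2, Mcm5, Cdc45 and Wdhd1. In GRCm38 these genes span chr11:98907709-98923942 (Cdc6), chr8:122568015-122573130 (Cdt1), chr8:120581266-120589075 (Gins2), chr7:44532744-44548815 (Pold1), chr19:5940543-5964238 (Pola2), chr8:75109468-75128439 (Mcm5), chr16:18780447-18811972 (Cdc45) and chr14:47240944-47276861 (Wdhd1), and a 50-kb bin holds introns, exons and the ground around the gene alike. Only Gins2 had it at more than 1 stage, and 11 loci stayed within 10 points at all 3 stages. Most members lay in the earliest class of bins, and there 18 of 22 loci had negative shifts at the 8-cell stage and 17 of 22 in the morula, beside 90.2 and 88.0% of the genes of that class. In this class 2 of 22 loci had a large shift at the 8-cell stage, where 27.1% of its genes did, and 2 of 22 at the morula stage, where 11.8% did.

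Among the licensing genes, the loci of both loading factors were replicated in far fewer siRif1 than siCont cells at the 8-cell stage. Cdc6, the ATPase that works with the recognition complex to load the helicase, was replicated in 47 of 60 siCont cells (78.3%, 95% limits 65.8 and 87.9%) and in 18 of 49 siRif1 cells (36.7%, 95% limits 23.4 and 51.7%), a shift of -35.4 points. Cdt1, which brings the helicase to the origin, was replicated in 37 of 60 siCont cells (61.7%, 95% limits 48.2 and 73.9%) and in 13 of 50 siRif1 cells (26%, 95% limits 14.6 and 40.3%), a shift of -29.5 points. The intervals of the groups did not overlap at either locus, also with the siRif1 limits moved up by the 6.18 points between the group means (to at most 57.9 and 46.5%). Here and below, intervals are compared at loci picked for a large shift, so that separate intervals follow in part from the choice. A large shift to later replication was seen at 18.2% of all genes at this stage, and how many of these have separate intervals was not counted. At the 4-cell stage the shares were 33 of 49 against 29 of 50 cells for Cdc6 (shift -13.3 points) and 20 of 49 against 22 of 51 for Cdt1 (-1.59). At the morula stage they were 35 of 44 against 34 of 45 for Cdc6 (-4.58) and 33 of 44 against 30 of 45 for Cdt1 (-8.92). Both loci thus passed 20 points at the 8-cell stage only, and the intervals overlapped at the stages before and after. Differences between stages were not tested. The percentile rank of Cdc6 was already lower in siRif1 at the 4-cell stage, at 68.9 against 92.0 in siCont. Gmnn, whose product holds Cdt1 in check, had shifts of 3.73, -11.5 and -11.2 points.

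The gene of 1 helicase subunit, Mcm5, passed the limit for a large shift at the morula stage only. It was replicated in 27 of 44 siCont cells (61.4%, 95% limits 45.5 and 75.6%) and in 13 of 45 siRif1 cells (28.9%, 95% limits 16.4 and 44.3%), a shift of -33.1 points, and the intervals did not overlap, centred or not. It was replicated at the 4-cell stage in 24 of 49 and 18 of 51 cells (48.98 and 35.3%, shift -17.6 points), and at the 8-cell stage in 29 of 60 and 18 of 50 (48.3 and 36%, shift -6.15). Mcm5 was thus lower in siRif1 at all 3 stages, and the intervals of the groups overlapped at the earlier pair of stages. By percentile rank Mcm5 fell from 59.7 in siCont to 14.3 in siRif1 at the 4-cell stage. The ranks were 45.9 and 33.9 at the 8-cell stage, and 58.7 and 14.2 in the morula. On that scale the morula did not stand out from the 4-cell stage, so the stage of its largest difference depends on the scale.

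In the morula the other helicase subunits stood closer to their controls. Mcm6, an early locus, had 42 of 60 siCont and 34 of 50 siRif1 cells replicated at the 8-cell stage (70 and 68%), with shifts of -0.754, 4.18 and -4.58 points over the 3 stages. Mcm7 had shifts of 4.85, -2.15 and -6.39 points. Mcm4 had -6.48, -14.5 and 2.27 points. Mcm3 was replicated in 26 of 49 cells with siCont and 22 of 51 with siRif1 at the 4-cell stage (53.1 and 43.1%, shift -13.8 points), in 39 of 60 and 31 of 50 at the 8-cell stage (65 and 62%, shift 3.18), and in 25 of 44 and 20 of 45 at the morula stage (56.8 and 44.4%, shift -13.0). Mcm2 was replicated in 22 of 49 and 30 of 51 cells at the 4-cell stage (44.9 and 58.8%, shift 10.01 points), in 42 of 60 and 28 of 50 at the 8-cell stage (shift -7.82), and in 32 of 43 and 29 of 45 at the morula stage (74.4 and 64.4%, shift -10.6). Most of these shifts are smaller than the counting SD of a shift, and differences between the subunits were not tested.

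The 6 genes of the origin recognition complex had no large shift. Orc6, its smallest subunit, came nearest, with 46 of 60 siCont cells (76.7%) and 26 of 50 siRif1 cells (52%) at the 8-cell stage and a shift of -18.5 points. Orc3 had the most negative shift of the complex in the morula, -15.7 points, from 36 of 44 to 30 of 45 cells (81.8 and 66.7%). Orc1 had shifts of -9.08, -12.5 and -11.4 points and stayed among the early loci in both treatments. Orc2 lay within 10 points at every stage (-0.114, 3.85 and -8.72), as did Orc4 (-4.52, -4.82 and 2.65). Orc5 had 4.21, 1.18 and -12.7 points. Over the 15 licensing genes the median shift was -1.59, -6.15 and -10.6 points at the 3 stages, with 10, 11 and 13 negative. The 4-cell median turned to 0.227 points with weighted cells and to 2.32 without centring.

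Among the firing genes, Gins2 was the locus with large shifts at more than 1 stage. It encodes a subunit of the GINS complex, which joins the helicase when an origin fires. At the 4-cell stage it was replicated in 22 of 49 siCont cells (44.9%, 95% limits 30.7 and 59.8%) and 14 of 51 siRif1 cells (27.5%, 95% limits 15.9 and 41.7%), a shift of -21.4 points with overlapping intervals. At the 8-cell stage it was replicated in 33 of 60 siCont cells (55%, 95% limits 41.6 and 67.9%) and 11 of 50 siRif1 cells (22%, 95% limits 11.5 and 35.96%), a shift of -26.8 points. These intervals did not overlap, but with the siRif1 limits moved by the 6.18 points between the group means they did (42.1 against 41.6%). At the morula stage the shift was -13.2 points, from 29 of 44 to 24 of 45 cells. The 4-cell value was -17.0 points with cells weighted alike over 4 classes of percent replicated, and so under 20.

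The other 3 GINS genes had no large shift. Gins1 had 46 of 60 siCont and 27 of 50 siRif1 cells replicated at the 8-cell stage (76.7 and 54%, shift -16.5 points), with -0.434 and -4.48 points at the 4-cell and morula stages. Gins3 had shifts of 3.41, 0.181 and -13.4 points. Gins4 had 1.77, -0.486 and 2.39 points, among the smallest of the list.

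Cdc45, the third component of the active helicase beside the Mcm ring and GINS, differed most in the morula. It was replicated there in 37 of 42 siCont cells (88.1%, 95% limits 74.4 and 96.0%) and in 30 of 45 siRif1 cells (66.7%, 95% limits 51.05 and 80%), a shift of -22.0 points. The intervals overlapped, and the shift was -14.5 points with weighted cells, -18.0 with median centring and -19.3 in the bin of the start site. At the earlier stages it was -8.28 and -8.82 points.

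The remaining firing genes had no large shift. Ticrr, which encodes the kinase target treslin, had 38 of 44 siCont and 31 of 43 siRif1 cells replicated in the morula (86.4 and 72.1%, shift -14.9 points), with -2.47 and -13.0 points at the earlier stages. Its partner Mtbp had -2.39, 1.18 and -6.70 points, and Topbp1, which binds treslin, -6.32, -10.8 and -11.2. Recql4, a helicase of the RecQ family needed for firing, was replicated in 34 of 49 and 32 of 51 cells at the 4-cell stage (69.4 and 62.7%, shift -10.6 points), with -11.5 and -13.5 points later. Mcm10, which acts in activating the helicase, had 7.57, -2.49 and -6.80 points. The median shift of the 10 firing genes was -2.43, -9.82 and -12.2 points, with 7, 8 and 9 negative. Both with weighted cells and without centring the 4-cell median turned to 1.48 points.

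Among the fork genes, the loci of 2 polymerase subunits were much lower in siRif1 at the 8-cell stage. Pola2 encodes the B subunit of polymerase alpha, which with primase starts each new strand. It was replicated in 42 of 60 siCont cells (70%, 95% limits 56.8 and 81.2%) and in 16 of 49 siRif1 cells (32.7%, 95% limits 19.9 and 47.5%), a shift of -31.2 points. Pold1, the catalytic subunit of polymerase delta, was replicated in 37 of 59 siCont cells (62.7%, 95% limits 49.1 and 74.96%) and in 16 of 50 siRif1 cells (32%, 95% limits 19.5 and 46.7%), a shift of -24.5 points. With the siRif1 limits moved by the difference in group means, the intervals stayed apart at Pola2 (53.7 against 56.8%) and overlapped at Pold1 (52.9 against 49.1%). Pold1 lay at the 4-cell stage just short of the limit for a large shift, with 26 of 49 and 19 of 51 cells (53.1 and 37.3%, shift -19.7 points), and Pola2 was at -4.36 points. At the morula stage both were closer to their controls, with shifts of -9.02 points for Pola2 and -3.65 for Pold1. By percentile rank Pold1 was already far lower in siRif1 at the 4-cell stage, at 18.0 against 69.7 in siCont. At the 8-cell stage its ranks were 25.3 in siRif1 and 69.2 in siCont.

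Wdhd1 and Pole were the fork loci that differed most in the morula. Wdhd1, which ties polymerase alpha to the helicase, was replicated in 38 of 44 siCont cells (86.4%, 95% limits 72.6 and 94.8%) and in 30 of 45 siRif1 cells (66.7%, 95% limits 51.05 and 80%), a shift of -20.3 points with overlapping intervals. That value lay just past the limit, and 4 alternatives put it between -16.3 and -19.7 points. Pole, the catalytic subunit of polymerase epsilon, was replicated in 27 of 44 and 20 of 45 cells (61.4 and 44.4%, shift -17.5 points), after -10.5 and -11.2 points at the earlier stages.

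Pcna and Rfc1 had no large shift, and Pcna was among the few loci with positive values at 2 stages. Pcna, the sliding clamp that holds polymerases on DNA, had the largest positive shift of the list, with 32 of 49 siCont cells (65.3%, 95% limits 50.4 and 78.3%) and 41 of 51 siRif1 cells (80.4%, 95% limits 66.9 and 90.2%) at the 4-cell stage, a shift of 11.2 points with overlapping intervals. It had -6.49 points at the 8-cell stage and 6.59 in the morula. Rfc1, the large subunit of the clamp loader, had -8.92, -0.819 and 2.09 points, and Clspn -7.12, -4.15 and 4.41. Pcna, Rfc1 and Clspn had the highest shares of the list in siRif1 morulae, with 38, 37 and 36 of 45 cells replicated. Timeless and Tipin, which form the fork protection complex, had shifts of -2.55, -9.09 and -9.12 and of -8.36, -10.5 and -4.48 points. Prim1, the catalytic subunit of primase, had -8.44, 0.909 and -6.90. The median shift of the 10 fork genes was -8.40, -9.79 and -5.69 points, with 9, 9 and 7 negative. With weighted cells the 4-cell median was -0.296 points, and by percentile rank the morula median turned to 4.69.

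**Figure D2:**
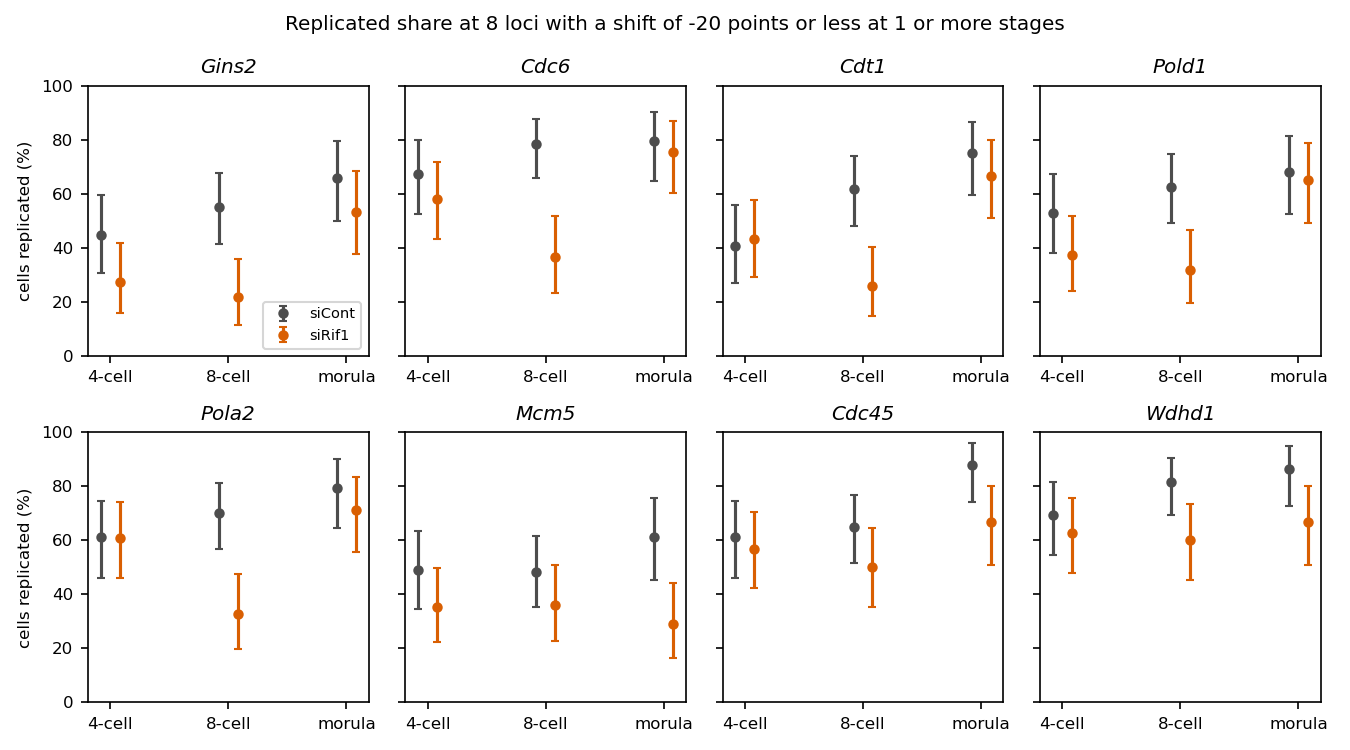
Percent of measured cells replicated in siCont (grey) and siRif1 (orange) at the 8 loci with a large shift, by stage; bars are exact 95% intervals that cover counting error only. The shares are uncentred. In siRif1 those of Cdc6, Cdt1, Gins2, Pold1 and Pola2 are lowest at the 8-cell stage, between 22 and 36.7%. Mcm5 is lowest at the morula stage with 28.9%. The siRif1 mean over all used bins also fell, from 50.5% at the 4-cell to 43.02% at the 8-cell stage. Once centred, Gins2 and Pold1 in siRif1 were 1.99 and 2.18 points higher at the 8-cell than at the 4-cell stage.

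The 5 loci with a large shift at the 8-cell stage did not have one in the morula. In siRif1 embryos their centred shares were higher in the morula than at the 8-cell stage, by 33.7 points at Cdt1, 31.9 at Cdc6, 31.5 at Pola2, 26.2 at Pold1 and 24.4 at Gins2. In siCont embryos the same change was 13.1, 1.02, 9.36, 5.28 and 10.7 points. Since these loci were picked for a low 8-cell share in siRif1, this is a description of them. Over the list 5 of 35 loci gained 20 points or more in siRif1 between these stages, the same 5, beside 16.1% of all genes. The percentile rank of Cdc6 in siRif1 went from 68.9 through 36.1 to 94.0 over the 3 stages, and in siCont it was 92.0, 94.9 and 88.1. Mcm3 went the other way in siRif1, with a centred share 26.3 points higher at the 8-cell than at the 4-cell stage and -24.5 points from there to the morula.

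Most of the large shifts belonged to long stretches of the chromosome that hold many genes besides the member. Around Cdc6 an unbroken run of bins with shifts of -20 points or less covered 2450 kb (chr11:97400001-99850000) with 95 protein-coding genes at the 8-cell stage, and all 41 bins within 1 Mb on either side were negative. The run around Pola2 covered 1950 kb with 75 genes, that around Pold1 1750 kb with 97 genes, that around Gins2 1350 kb with 23 genes, and that around Cdt1 850 kb with 20 genes. The shift at these 5 loci was thus that of a neighbourhood, and Pold1 lay in the first bin of its run. The run around Gins2 covered 350 kb at the 4-cell stage.

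The morula shifts were more local. The run around Mcm5 covered 650 kb with 6 genes, and only 22 of the 41 bins within 1 Mb had negative shifts, with values up to 21.4 points. In siCont morulae Mcm5 lay on a local peak between later flanks, at a percentile rank of 58.7, below the median of 73.8 for all genes. In siRif1 morulae its share was close to that of the flanks. The run covered 200 kb around Wdhd1 and a single bin at Cdc45, whose own shifts lay close to the limit. All 41 bins of the window were nonetheless negative at Cdc45, with a mean of -12.6 points. At Wdhd1 33 of 41 were, with a mean of -12.7 points, so at these 2 loci the lower shares reached beyond the run.

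**Figure D3:**
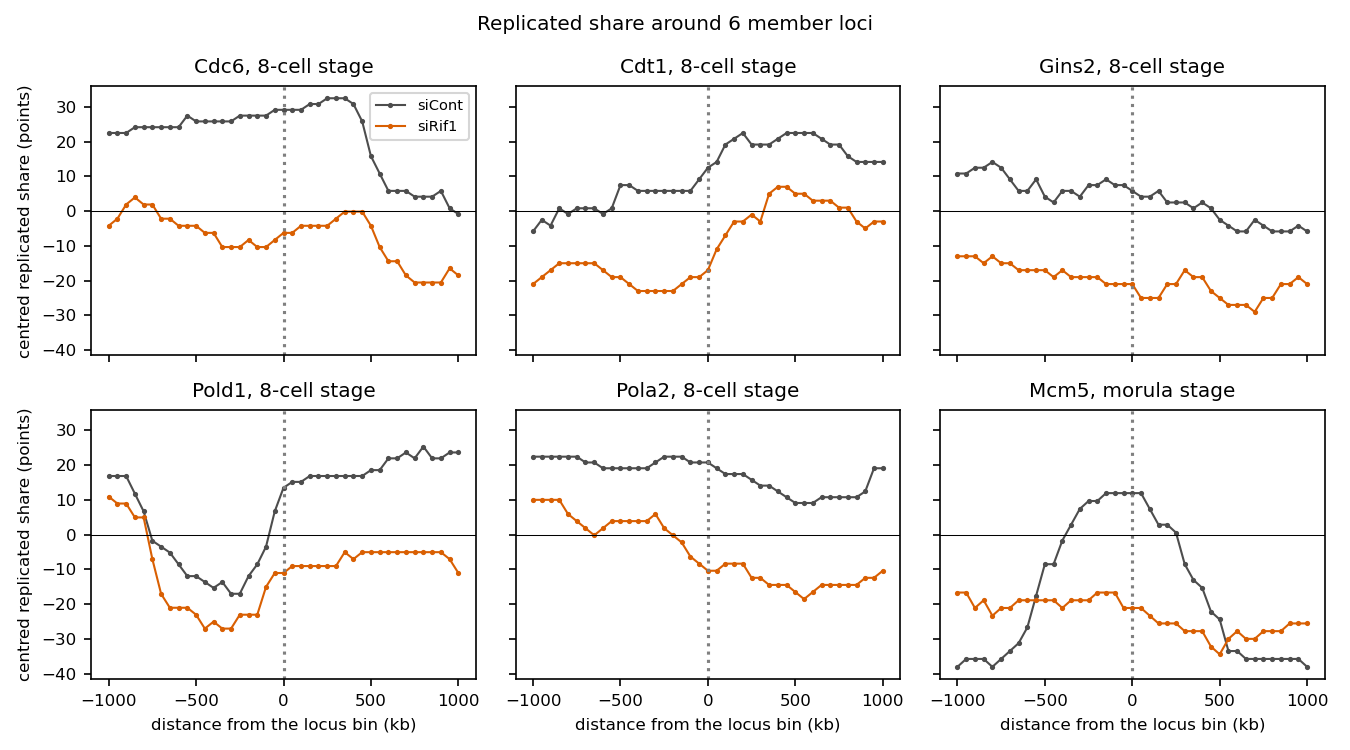
Centred replicated share (points) by distance from the locus bin (kb, dotted line at 0) in siCont (grey) and siRif1 (orange) cells around 6 loci, at the stage of their large shift. The curves lie apart over the whole window of 1 Mb on either side at Cdc6, Cdt1, Gins2 and Pola2, whereas at Mcm5 the control peak is missing in siRif1 and the flanks lie higher.

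Timeless and Prim1 were the nearest pair of members, and they shared their state in more cells than Cdt1 and Gins2, which lie further apart. Timeless and Prim1, 200 kb apart on chromosome 10, had the same state in 49 of 49 siCont and 44 of 51 siRif1 cells at the 4-cell stage, in 54 of 60 and 45 of 49 at the 8-cell stage, and in 44 of 44 and 44 of 45 in the morula. Over the 557 pairs of members on different chromosomes the median agreement was 60 to 68.2% of cells in the 6 groups. The highest agreement of such a pair in siRif1 cells of the 8-cell stage was 81.6%, and in that group Cdt1 and Gins2 were above it. Cdt1 and Gins2, 2000 kb apart on chromosome 8, agreed in 33 of 49, 44 of 60 and 30 of 44 siCont cells and in 37 of 51, 42 of 50 and 29 of 45 siRif1 cells at the 3 stages. Their runs of large shifts did not touch, but this depends on the limit of 20 points. At the 8-cell stage all 41 bins within 1 Mb were negative at both loci, with values up to -12.8 points around Cdt1 and -14.8 around Gins2. The 2 loci are thus not clearly separate cases.

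The spread of the replicated share over the 35 loci was somewhat wider in siRif1 than in siCont at the 8-cell and morula stages. Its SD at the 8-cell stage was 9.57 points in siCont and 12.05 in siRif1, and 10.8 and 12.7 in the morula, while over all genes it was 17.6 and 14.8 points, and 20.5 and 15.7. Genes of the earliest class, where most members lie, also spread, from 6.84 to 11.1 points at the 8-cell stage and from 7.07 to 7.70 in the morula. The members of that class went from 6.46 to 9.19 points and, in the morula, from 9.02 to 8.70, and the firing genes from 7.45 to 5.64 in the morula. The wider spread is thus not particular to the list. Counting error alone gives an SD of 5.93 and 6.87 points over the members at the 8-cell stage, and with cells weighted alike the difference between the treatments there was 0.0734 points in place of 2.47.

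The surroundings of the members were like those of other genes in density. A member had a median of 14 protein-coding genes within 500 kb (range 2 to 55), and a gene in general 16. The 18 members with 14 or more such genes had median shifts of -7.70, -11.3 and -9.07 points over the 3 stages and the 17 with fewer -0.754, -6.15 and -6.80. All genes split at the same density had medians of -4.52, -13.2 and -8.97 points and of 0.447, -2.42 and -6.14. Of the 5 large shifts at the 8-cell stage, 4 were in the denser set (Pola2 with 55, Pold1 with 52, Cdc6 with 34 and Cdt1 with 20 genes) and 1, Gins2 with 9 genes, in the sparser. This is 4 of 18 and 1 of 17, beside 28.8 and 4.68% of all genes in such surroundings, so that the split by density is one that genes in general show. The most isolated loci, Orc4 and Orc5 with 2 genes each, had small shifts at that stage.

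Within single cells the machinery's loci ran ahead of the genome, and at the 8-cell and morula stages by less in siRif1. In cells that had replicated 20 to 80% of their bins, the percent of member loci replicated exceeded the percent of all bins by a median of 11.4 points (siCont) and 7.46 points (siRif1) at the 4-cell stage, 17.4 and 9.06 at the 8-cell stage, and 26.1 and 17.7 in the morula. The excess was above 0 in 46 of 54 siCont and 29 of 47 siRif1 cells at the 8-cell stage, and in 41 of 42 and 35 of 43 in the morula. For all genes the excess was 4.12 and 3.10 points at the 4-cell stage, 9.63 and 0.617 at the 8-cell stage and 17.0 and 8.94 in the morula. Set against the genes of the same cell, the member loci were ahead by 7.63 and 5.68 points at the 4-cell stage, 7.38 and 5.05 at the 8-cell stage and 7.98 and 7.66 in the morula. At the 8-cell and morula stages the excess of all genes was thus lower in siRif1 by about as much as that of the members. At the 4-cell stage the direction of the list turned with weighted cells, so the difference there is not given as a result.

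**Figure D4:**
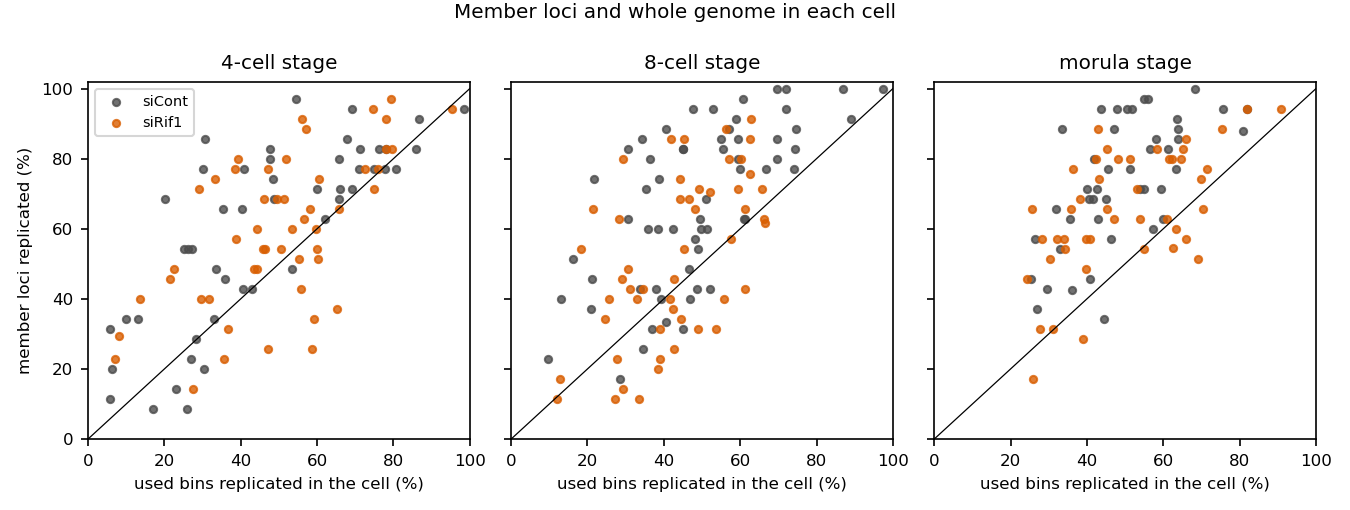
Percent of the 35 loci replicated against the percent of used bins replicated in the same cell, 1 point a cell, siCont in grey and siRif1 in orange; the line marks equality. Most cells lie above the line, 41 of 42 siCont cells and 35 of 43 siRif1 cells between 20 and 80% in the morula, and at the 8-cell stage no siRif1 cell lies beyond 66.5% on the horizontal axis.

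Few cells of mid S phase had copied all 6 helicase genes. Apart from the recognition complex, no other set of 6 genes was counted, so this is not read as a trait of the helicase genes. Of cells replicated at 20 to 80% of their bins, 3 of 39 siCont and 2 of 47 siRif1 cells had all 6 Mcm loci replicated at the 4-cell stage, 7 of 54 and 3 of 47 at the 8-cell stage, and 4 of 40 and 2 of 43 in the morula. The median cell had 3, 4 and 4 of the 6 replicated in siCont and 3 in siRif1 at every stage. At the 8-cell stage 11 of 54 siCont and 7 of 47 siRif1 cells had copied all 6 loci of the recognition complex, and in the morula 7 of 42 and 2 of 43 had. These counts depend on how far the cells had gone. In cells of 50 to 80% alone they were 9 of 23 and 6 of 16 at the 8-cell stage (39.1 and 37.5%), and 7 of 19 and 2 of 19 in the morula. For the Mcm loci they were 6 of 23 and 3 of 16, and 4 of 18 and 2 of 19. These are small counts, and the intervals of the treatments overlapped for the Mcm genes at the 8-cell stage (5.37 to 24.9% against 1.34 to 17.5%).

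A second list of 31 replication genes, with the remaining polymerase, clamp loader and single-strand binding subunits and factors of Okazaki fragment and chromatin assembly, was set beside the first, and 30 of them were measured. Their median shifts were -0.314, -12.2 and -13.0 points over the 3 stages, with 17, 24 and 26 of 30 negative, beside 59.6, 71.9 and 74.8% of all genes. Large shifts to later replication numbered 0, 8 and 7 of 30, beside 3.07, 18.2 and 9.98% of all genes. Chtf18, of an alternative clamp loader, had the largest, with 45 of 60 siCont and 12 of 50 siRif1 cells at the 8-cell stage (shift -44.8 points) and -26.8 points in the morula, from 36 of 44 to 25 of 45 cells. Top2a, topoisomerase II alpha, went from 47 of 60 to 19 of 49 cells at the 8-cell stage (-33.4 points), but it lies 100 kb from Cdc6 and is no separate case. Supt16, a subunit of the histone chaperone FACT, went from 30 of 44 to 18 of 45 cells in the morula (-28.8 points). At the 4-cell stage the extremes were Rnaseh2a, a subunit of ribonuclease H2, at -18.0 points (29 of 49 to 23 of 51 cells) and Top1, topoisomerase I, at 17.9 points (22 of 49 to 34 of 51).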

How the data were processed

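The deposited tables, 1 per group, hold for each 50-kb bin and cell a state of 0, 1 or NA, made by the authors. The making of states from reads, the choice of cells and the read depth of a cell are not given in the sources used here. Per the submitters' processing notes the build was GRCm38, and R 4.2.3, bedtools, Picard, SAMtools and Bowtie2 2.5.1 were used, in roles not stated. Of 416 labelled cells 299 had a column, and each was measured at 88.1 to 94.1% of bins of chromosomes 1 to 19. A state of 1 was read as replicated because bins with genes had the higher share of 1 in all 6 groups; the tables do not say so.

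Of 49264 bins, 46015 had 10 or more measured cells in all 6 groups. Shares, centred shares, exact intervals and percentile ranks were computed with Python 3.11.15, numpy 2.4.6, scipy 1.17.1 and pandas 2.3.3, checked on simulated states. Genes and promoters came from RefSeq tables of GRCm38.p6, and 19406 of 20661 autosomal protein-coding genes had a used midpoint bin. Counts over the whole list stand beside the percent of all genes past the same limit, in place of a test. Named were all members, in full where the shift was 20 points or more, and per role and stage the 2 with the largest absolute shift, also the 2 largest of the second list. Alternatives changed the cell minimum, the cells used, their weighting, the centring, the bins of a gene and the limit for a large shift. The start-site bin and the uncentred difference were added after seeing the data. The members and lists were chosen with earlier results of these data known.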

Additional observations from a re-analysis of the deposited data

Results flagged for a closer look

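Mcm2 had shifts of opposite sign at different stages, each near the size of the counting error. Its shift was 10.01 points at the 4-cell stage, where 30 of 51 siRif1 and 22 of 49 siCont cells had replicated it, and -10.6 points at the morula stage, where 29 of 45 and 32 of 43 cells had. The counting SD of a shift was 9.53 points at the 4-cell and 9.40 at the morula stage, and the intervals of the groups overlapped at both. In the morula the percentile rank of Mcm2 was 77.8 in siCont and 75.8 in siRif1, and the median shift of all genes was -8.04 points. With 1 sample a group the difference between the stages was not tested.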

How the results depend on the processing

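Of 194 values of whole lists recomputed under the alternatives, 164 kept their direction within a set tolerance, 22 moved past it and 8 reversed. The cause was not tested. The alternative minimum of 20 measured cells removed no locus, since each share rests on 42 or more cells. Its values could therefore hardly move, and they count among the 164 without adding support. The tolerance was 5 points for medians and a factor of 1.5 for counts, so it takes in, for example, 18 in place of 26 negative loci at the 4-cell stage without centring and 20 in place of 29 in the morula by rank. The count of large shifts (1, 5 and 3 at the 3 stages) was 0, 2 and 1 at a limit of 30 points. At the 4-cell stage it was 2 with cells of 20 to 80% or median centring, and 0 with weighted cells, no centring or the start-site bin. At the 8-cell stage it was 8 with weighted cells and 9 without centring, and in the morula 1 with median centring. Weighted cells gave 4-cell medians of 0.466 points for the members, 0.227 for licensing, 1.48 for firing and -0.296 for fork genes, and 16 negative loci. The start-site bin gave 17 negative of the 26 genes placed. Without centring the 4-cell medians were 2.32 for licensing and 1.48 for firing genes, and the 8-cell medians -15.0 for the members, -12.3 for licensing, -16.0 for firing and -16.0 for fork genes. By percentile rank the morula medians were -1.03 for the members, -2.22 for licensing, -5.69 for firing and 4.69 for fork genes. The control change from the 4-cell to the 8-cell stage was 4.08 points, -0.0340 with median centring and -1.53 by rank, and that from the 8-cell stage to the morula 7.08 points and 1.27 by rank.

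The shifts of Cdc6, Cdt1, Gins2, Pold1 and Pola2 at the 8-cell stage and of Mcm5 in the morula were past 20 points under every alternative run. No paired analysis was possible because cell numbers only name cells and no test was made. Each share rests on 42 or more measured cells, and counting error alone gives a shift an SD of 9.08 to 9.53 points.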
